A study of Mus musculus with 6 samples.

Results

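Primary hippocampal neurons of C57bl/6 mice at E16.5 were kept 10 days in culture, and RNA was sequenced without treatment and after 0.5 h or 3 h in 55 mM KCl, which depolarises neurons. Every group shares strain and culture age, and there are 2 libraries a group (6 libraries over 3 groups), and no genotype beyond the strain is named. The genes described here were almost silent in untreated neurons and were switched on by 3 h. They had an untreated mean under 0.5 cRPKM (the authors' RPKM per gene), and their lower 3 h library held at least 0.15 cRPKM and 20 counts and stood at least 2.5 times above the higher untreated library. Of 21553 genes with values, 8400 were under the untreated ceiling, 904 of these also passed the level and count minimums, and 87 also passed the fold. Fosl1, Cnn1 and Ptgs2 were left out by name, which leaves 84 genes. The genes were thus chosen by their 3 h and untreated values, so the rise at 3 h is a description of how the genes were chosen and carries no test.

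When a neuron is depolarised, calcium entering the cell activates factors such as CREB and SRF that switch on immediate early genes, and the transcription factors these encode, Fos and Jun proteins among them, then act on a later set of genes. RNA can also appear over a silent gene in another way. RNA polymerase normally stops soon after the end of a gene, and under osmotic and other stress it has been found to run on into the DNA downstream, where it can cross a neighbour that is itself not transcribed from its own start. A count per gene does not tell these apart, and the library kit named in the labels does not mark the strand.

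The 84 genes were therefore divided by their place in the genome, in GENCODE M21, an annotation of a later build (GRCm38) than the deposited mm9, from which only names, order and distances are taken. A neighbour was taken as strongly expressed where its mean over the 6 libraries was at least 10 times the 3 h mean of the gene. In 12 genes such a neighbour overlapped the gene. In 49 others its 3′ end pointed at the gene from within 50 kb, on either strand. The remaining 23 genes had no such neighbour and are called isolated here. These places say where transcription from a neighbour could reach, not that it did. Of the 23, 15 stayed isolated under each of 6 other settings of distance, ratio, level and strand (4931440P22Rik, Fzd5, Fgf10, Sfrp4, Ror1, Gbp11, Ptgfr, Esm1, Tlcd2, Serpinb2, Tslp, Psors1c2, Ifi209, Galr1 and Sucnr1). The other 8 (A3galt2, Apobr, Ptger4, Cartpt, Epha2, Slco1b2, Lrrc52 and Dct) gained a neighbour at 100 kb, at a ratio of 5 or by its 3 h level. The settings with a shorter distance, a higher ratio or same-strand neighbours only could not add a neighbour. They therefore put none of the 23 to a test.

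The libraries held 98882007 to 141865913 counts. The 12 neuron markers summed to 2001 and 1588 cRPKM at 3 h, against 2483 and 2556 in untreated cultures. The markers differed in size of change: Tubb3 held 253 and 158 at 3 h, against 607 and 453 untreated. Stmn2 held 770 and 524, against 780 and 700. Between the replicate 1 libraries every neuron marker but Snap25 was lower at 3 h, and between the replicate 2 libraries all were. Astrocyte markers (10 genes) summed to 1107 and 2233 at 3 h, against 1070 and 1570 untreated. The replicates differed most in Gfap, which held 24.6 and 475 at 3 h, against 22.4 and 307 untreated. Sox9 and Fgfr3 were lower in replicate 2 at 3 h than in replicate 2 untreated. Fibroblast markers (10) summed to 262 and 276 at 3 h, against 266 and 349 untreated. Most of each sum was Thy1, with 194 and 207 at 3 h, against 201 and 289 untreated. Between the replicate 2 libraries only Thy1 and Dcn were lower at 3 h, and the other fibroblast markers were higher. Between the replicate 1 libraries Thy1, Pdgfra, Postn and Fbln1 were lower and the others higher. Col1a2 held 0.17 and 2.71 at 3 h, against 0.04 and 2.05 untreated. Col1a1, Col1a2 and Col3a1 were higher in replicate 2 of every group, and Dcn and Fbln1 in replicate 1. Mural markers (10) summed to 11.3 and 17.5 at 3 h, against 13.8 and 14.8 untreated. The 14 microglia markers summed to 4.37 and 6.31 at 3 h and 3.48 and 4.51 in untreated cultures. Of these Cd68 held 2.74 and 4.65 at 3 h, against 1.66 and 2.76 untreated. Aif1 and Csf1r were lower in both 3 h libraries than in either untreated one, and P2ry12, Tyrobp and C1qc were higher. The 10 endothelial markers summed to 2.04 and 1.45 at 3 h, against 2.04 and 1.76 untreated. At 3 h the numbers of markers at 0 in replicates 1 and 2 were 1 and 0 for microglia, 0 and 2 for mural cells and 1 and 1 for endothelial cells. No neuron, astrocyte or fibroblast marker was at 0. In such bulk samples fewer cells of a type and less RNA per cell cannot be told apart, and the part of cell makeup in the results below was not tested.

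The 84 genes had a median level of 0.105 cRPKM without KCl, 0.128 after 0.5 h and 0.53 after 3 h, and their 3 h means ran from 0.17 to 10.7. They are low even when switched on: 19 reached a mean of 1 cRPKM at 3 h and 37 stayed under 0.5. The median ratio of the 3 h mean to the untreated mean was 5.96. In edgeR's quasi-likelihood fit over 15895 genes, 8.71% of all genes were called higher at 3 h (Benjamini-Hochberg adjusted p under 0.05), and 80 of the 84 were. Nothing is read from this, since the rule used the same contrast. The 3 h libraries, where all 84 are high, also help them past the filter on low counts. In 60 of the 84 both untreated libraries held at least 10 counts as well. Almost none of the 80 were called when either untreated library was left out. Such a fit leaves 1 library in that group and fewer residual degrees of freedom, and the part of this in the loss was not tested. By annotation 81 of the 84 code for protein and 6 have a single exon.

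The isolated genes were the more highly expressed, with a median of 0.90 cRPKM at 3 h, against 0.495 in facing and 0.515 in overlapping genes. At least 1 cRPKM was reached by 11 of 23 isolated genes, 7 of 49 facing genes and 1 of 12 overlapping genes. The ratio by which neighbours were judged grows harder to meet as a gene's own level rises, and its part in this difference was not tested.

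**Figure D1:**
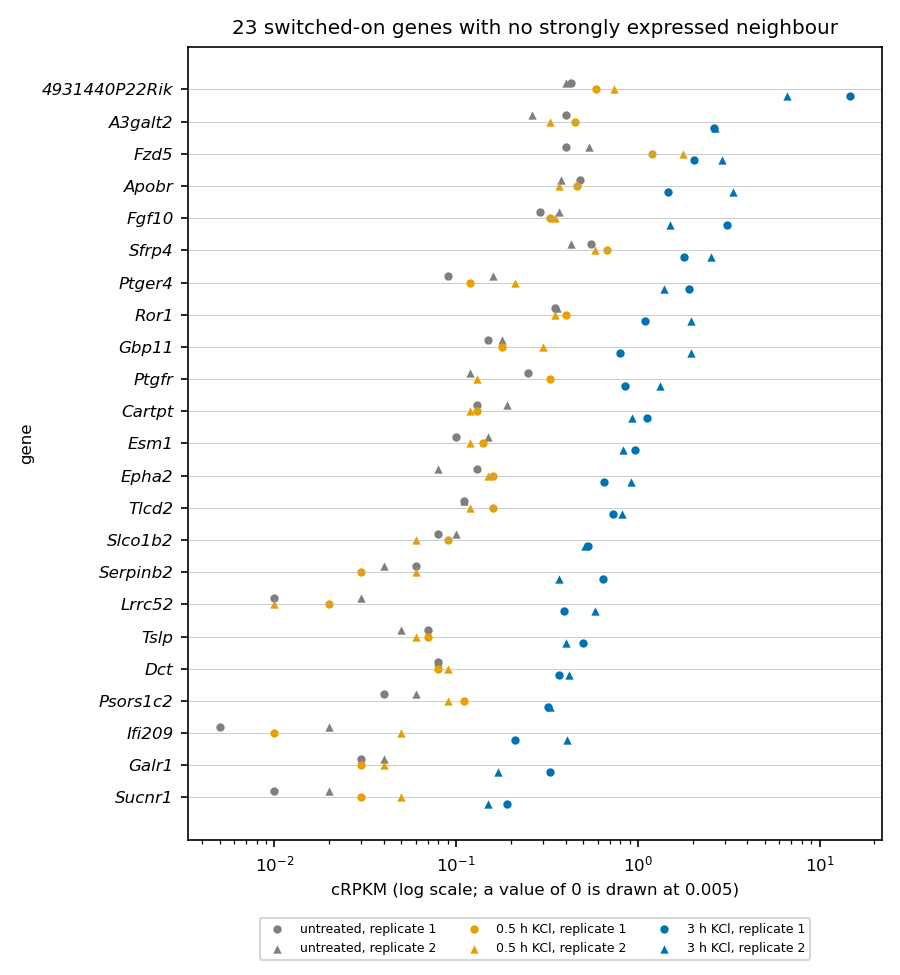
cRPKM (log scale) of the 23 isolated genes in each library, ordered by the 3 h mean, with untreated in grey, 0.5 h KCl in orange and 3 h KCl in blue, circles for replicate 1 and triangles for replicate 2. The 3 h points lie to the right of both untreated points in every row, as the rule requires, and the 0.5 h points of Fzd5 stand apart from its untreated points.

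Receptors were the largest group of isolated genes. Fzd5 (ENSMUSG00000045005), a Frizzled receptor for Wnt proteins, stood at 0.40 and 0.54 cRPKM without KCl, 1.20 and 1.77 at 0.5 h, and 2.05 and 2.89 at 3 h. Both 0.5 h libraries were above both untreated ones and below both 3 h ones, so that its level climbed in steps. Ror1, a receptor tyrosine kinase that also binds Wnt proteins, stood at 0.35 and 0.36 cRPKM at rest, 0.40 and 0.35 by 0.5 h and 1.09 and 1.96 by 3 h. Its untreated and 0.5 h values lay together and both 3 h values stood clear above them. Sfrp4, a secreted protein that binds Wnts and is grouped here for that reason, stood at 0.55 and 0.43 cRPKM untreated, 0.68 and 0.58 at 0.5 h and 1.79 and 2.54 at 3 h.

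Both prostaglandin receptors among the 84 were isolated. Ptger4 (ENSMUSG00000039942) encodes the EP4 receptor for prostaglandin E2, the lipid made downstream of the cyclooxygenase Ptgs2. It held 0.09 and 0.16 cRPKM in untreated cells, 0.12 and 0.21 by 0.5 h, and 1.92 and 1.40 by 3 h, which is 863 and 446 counts. Ptgfr, the receptor for prostaglandin F2α, held 0.25 and 0.12 cRPKM at rest, 0.33 and 0.13 by 0.5 h and 0.85 and 1.32 by 3 h. The untreated and 0.5 h values of both genes overlap, and their 3 h values do not overlap with either. The log2 change at 3 h was 3.76 ± 0.41 for Ptger4 and 2.58 ± 0.59 for Ptgfr (± SE of the fit). Ptger4 was isolated at the settings used, but the gene Ttc33 overlaps it and held 14.1 cRPKM at 3 h, more than 5 times its level.

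Epha2, an ephrin receptor tyrosine kinase, held 0.13 and 0.08 cRPKM at rest, 0.16 and 0.15 after 0.5 h, and 0.65 and 0.92 after 3 h. Apobr, a receptor for apolipoprotein B known from macrophages, held 0.48 and 0.38 cRPKM untreated, 0.46 and 0.37 at 0.5 h and 1.46 and 3.34 at 3 h, so that its 3 h libraries were over 2-fold apart. Galr1, a receptor for the neuropeptide galanin, reached 0.33 and 0.17 cRPKM at 3 h (132 and 47 counts) against 0.03 and 0.04 in untreated neurons (14 and 15 counts). Sucnr1, the receptor for succinate, had 41 and 23 counts at 3 h, against 3 and 4 in untreated neurons, the lowest level of the 84. In Galr1 and Sucnr1 the resting value thus rests on few reads, while Epha2 and Apobr had 40 to 215 counts in each untreated library.

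Secreted proteins were the other large group. Fgf10 (ENSMUSG00000021732), a fibroblast growth factor, held 0.29 and 0.37 cRPKM without KCl, 0.33 and 0.35 at 0.5 h, and 3.11 and 1.5 at 3 h. Its 0.5 h values lay inside the untreated range while both 3 h libraries were clear of it, a log2 change of 2.88 ± 0.41. Cartpt, the precursor of the CART neuropeptides, held 0.13 and 0.19 cRPKM at rest, 0.13 and 0.12 by 0.5 h and 1.12 and 0.93 by 3 h. Esm1, the proteoglycan endocan, held 0.10 and 0.15 cRPKM untreated, 0.14 and 0.12 at 0.5 h and 0.97 and 0.83 at 3 h. In these 3 genes no 0.5 h library exceeded the higher untreated one, and the rise lay wholly between 0.5 h and 3 h.

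Serpinb2, which encodes plasminogen activator inhibitor 2, held 0.06 and 0.04 cRPKM in untreated cells, 0.03 and 0.06 by 0.5 h, and 0.64 and 0.37 by 3 h, which is 172 and 71 counts. Tslp, a cytokine of epithelial cells, had 76 and 43 counts at 3 h, against 10 and 7 in untreated neurons. The ratio of the 3 h mean to the untreated mean was 10.1 for Serpinb2 and 7.5 for Tslp, on few counts at rest.

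Upstream sequence is shown for 4 isolated genes whose promoters hold a letter pattern known from activity-regulated genes. Each is the 250 bases before the RefSeq start (GRCm38.p6), written 5′ to 3′ on the gene's strand. Capitals mark the cAMP response element TGACGTCA in Cartpt and Epha2, the AP-1 pattern TGANTCA in Serpinb2 and Apobr, and the TATA box TATAAA in Serpinb2. The cAMP response element is the pattern bound by CREB, and the AP-1 pattern that bound by pairs of Fos and Jun proteins. The isolated genes Ifi209 and Sucnr1 hold the AP-1 pattern as well, and their sequences are not shown. The positions are chr13:99900684-99900933 on the minus strand for Cartpt, chr4:141300971-141301220 on the plus strand for Epha2, chr1:107511173-107511422 on the plus strand for Serpinb2 (the first of 2 listed starts) and chr7:126584758-126585007 on the plus strand for Apobr.
Cartpt: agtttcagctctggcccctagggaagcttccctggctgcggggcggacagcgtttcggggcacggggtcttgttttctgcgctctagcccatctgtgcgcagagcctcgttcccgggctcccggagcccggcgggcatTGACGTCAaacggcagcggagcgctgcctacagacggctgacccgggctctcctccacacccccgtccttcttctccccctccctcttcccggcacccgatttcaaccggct
Epha2: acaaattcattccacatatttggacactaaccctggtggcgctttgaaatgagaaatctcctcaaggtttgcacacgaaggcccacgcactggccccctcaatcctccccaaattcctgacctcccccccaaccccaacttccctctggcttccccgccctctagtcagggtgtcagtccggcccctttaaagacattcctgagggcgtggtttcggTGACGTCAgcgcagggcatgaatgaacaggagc
Serpinb2: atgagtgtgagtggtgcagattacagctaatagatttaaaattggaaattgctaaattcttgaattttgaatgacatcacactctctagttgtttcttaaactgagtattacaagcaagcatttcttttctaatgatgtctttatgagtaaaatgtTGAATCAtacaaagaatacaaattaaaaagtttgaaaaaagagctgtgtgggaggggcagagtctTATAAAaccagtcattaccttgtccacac
Apobr: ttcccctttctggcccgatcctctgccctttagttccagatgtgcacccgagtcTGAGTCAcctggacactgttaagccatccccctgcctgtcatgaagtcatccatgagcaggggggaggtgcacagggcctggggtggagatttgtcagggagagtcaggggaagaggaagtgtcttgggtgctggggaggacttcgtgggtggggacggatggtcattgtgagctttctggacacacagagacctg

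The same patterns were counted over all promoters. RefSeq had promoters for 66 of the 84 genes, 72 sequences of 300 bases (250 before to 50 after the start), and 32851 sequences for all genes. Both strands were searched, and the shares are of promoters. TGACGTCA was in 2 of 72 (2.78%), against 1.79% of all promoters, and both were in isolated genes. Its shorter form TGACG, which the full element contains, was in 10 (13.9%), against 20.8%. TGANTCA was in 10 (13.9%), against 7.81%, with Serpinb2 counted at 2 starts. By gene it was in 9 of 66 (13.6%), against 8.97% of all genes with promoters. The 9 genes were 4930590J08Rik, Apobr, Cldn15, Ephx3, Grin3b, Ifi209, Serpinb2, Slc3a1 and Sucnr1. They include 4 of 18 matched isolated genes. The CArG box, bound by SRF, was in 2 (2.78%), against 1.63%. GCGNGGGCG, the pattern of Egr factors, was in 0, against 5.55%. The TATA box TATAAA was in 10 (13.9%, against 13.6%), CCAAT in 23 (31.9%, against 37.4%) and TCGTG, a pattern of NPAS4, in 7 (9.72%, against 16.04%). A match is a run of letters in this window and no evidence of binding.

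Other isolated genes were enzymes and transporters, or had no settled role. 4931440P22Rik (ENSMUSG00000074580) was the highest of the 84, with 0.43 and 0.40 cRPKM at rest, 0.59 and 0.74 after 0.5 h, and 14.8 and 6.63 after 3 h. It is annotated as a transcribed processed pseudogene, whose reads could be shared with the gene it was copied from. A3galt2, a galactosyltransferase of glycolipid synthesis, held 0.40 and 0.26 cRPKM at rest, 0.45 and 0.33 by 0.5 h and 2.63 and 2.67 by 3 h, and its 3 h libraries were nearly equal. It is a borderline case: Phc2, at 23.9 cRPKM at 3 h, points at it from 2.48 kb and is over 5 but under 10 times its level.

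Slco1b2, an organic anion transporter of the liver, held 0.08 and 0.10 cRPKM untreated, 0.09 and 0.06 at 0.5 h and 0.53 and 0.51 at 3 h. Tlcd2 held 0.11 in both untreated libraries, 0.16 and 0.12 at 0.5 h, and 0.73 and 0.82 at 3 h. Gbp11, of the guanylate-binding protein family of close copies, is annotated as a polymorphic pseudogene. It held 0.15 and 0.18 cRPKM at rest, 0.18 and 0.30 by 0.5 h and 0.80 and 1.97 by 3 h. Its counts were 6 and 7 at rest and 32 and 56 at 3 h. Slco1b2, Tlcd2 and Gbp11 each had their 3 h libraries clear of the other 4.

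The other 4 isolated genes had 3 h means under 0.5 cRPKM. Lrrc52, an auxiliary subunit of large-conductance potassium channels, had 1 and 4 counts in untreated neurons, 3 and 1 at 0.5 h, and 60 and 62 at 3 h. Ifi209, of the interferon-inducible p200 family of close copies, had 0 and 3 counts untreated, 2 and 7 at 0.5 h and 38 and 53 at 3 h. Dct, an enzyme of melanin synthesis, held 0.08 in both untreated libraries and 0.37 and 0.42 cRPKM at 3 h. Psors1c2 held 0.32 and 0.33 cRPKM at 3 h, against 0.04 and 0.06 in untreated neurons. For Lrrc52 and Ifi209 the count at rest was so low that their ratios of means, 24.2 and 31.0, rest on few reads.

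The median distance of the 49 facing genes from the 3′ end of their expressed neighbour was 3.17 kb, the range 0.123 to 48.8 kb, and 28 of 49 lay within 5 kb. In 35 the neighbour was on the same strand, upstream of the gene, and in 14 it was on the opposite strand and converged on it. For comparison the 817 genes that passed the same level and count minimums but not the fold were placed in the same way. Of these 401 (49.1%) were facing, against 58.3% of the switched-on genes, and 13.3% were overlapping, against 14.3%. Among the facing genes of that set the median distance was 8.51 kb, 37.9% lay within 5 kb, against 57.1% of the switched-on ones, and 51.6% had the neighbour on the same strand, against 71.4%. Same-strand neighbours within 5 kb occurred in 19 of the 84 (22.6%) and in 70 of the 817 (8.57%). These shares are a description and the differences were not tested. The 817 were compared after the results were known.

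**Figure D2:**
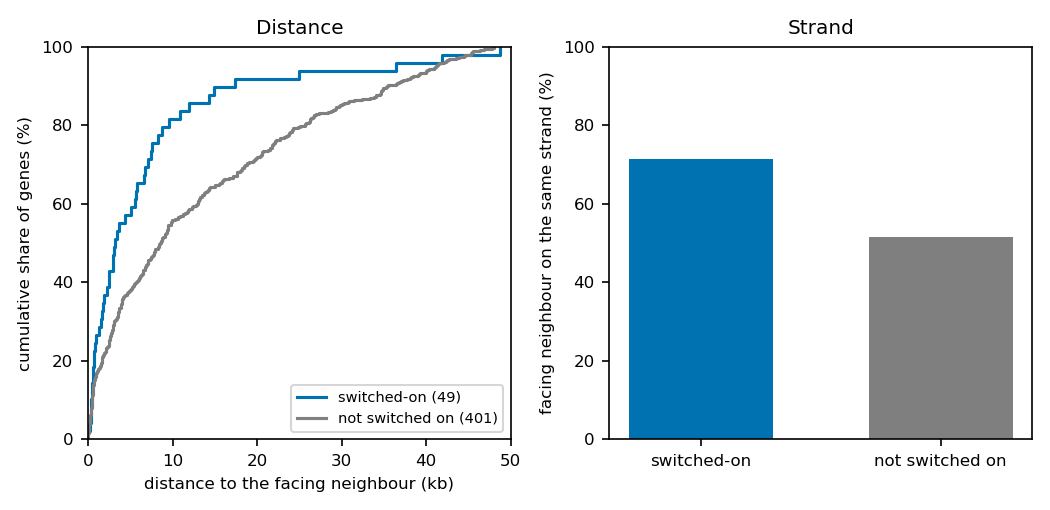
Left, the cumulative share (%) of facing genes by distance (kb) to the 3′ end of the strongly expressed neighbour, for the 49 switched-on genes in blue and the 401 genes past the level and count minimums but not the fold in grey. Right, the share (%) whose facing neighbour is on the same strand, 71.4% and 51.6%; the switched-on genes lie closer, with medians of 3.17 and 8.51 kb.

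The neighbours' own changes were tested in the same fit. Among the 49 facing neighbours 4 were called higher at 3 h and 0 lower by edgeR (8.16% and 0%), against 8.71% and 6.84% of all genes tested, and 45 were not called. Over the 61 neighbours of facing and overlapping genes the counts were 5 higher and 1 lower. DESeq2, another count model, called 11 higher and 2 lower (14.4% and 11.9% of all genes). With the replicate number as a block edgeR called 15 higher and 5 lower, 13 and 2 of them facing (18.6% of all genes in each direction). Without either untreated library both counts were 0, without either 0.5 h library or 3 h replicate 2 they were 3 and 0, and without 3 h replicate 1 they were 10 and 8. At an unadjusted p under 0.05 the facing neighbours had 11 higher and 3 lower, against 17.8% and 16.6% of all genes. Their median log2 change was 0.05, with a range from −0.36 to 1.28, while the genes they face had a median of 2.55. The level of a facing gene was a median of 0.297% of its neighbour's in untreated neurons and 1.97% at 3 h. In all 49 pairs the facing gene had the larger log2 change, as the rule for choosing it favours.

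**Figure D3:**
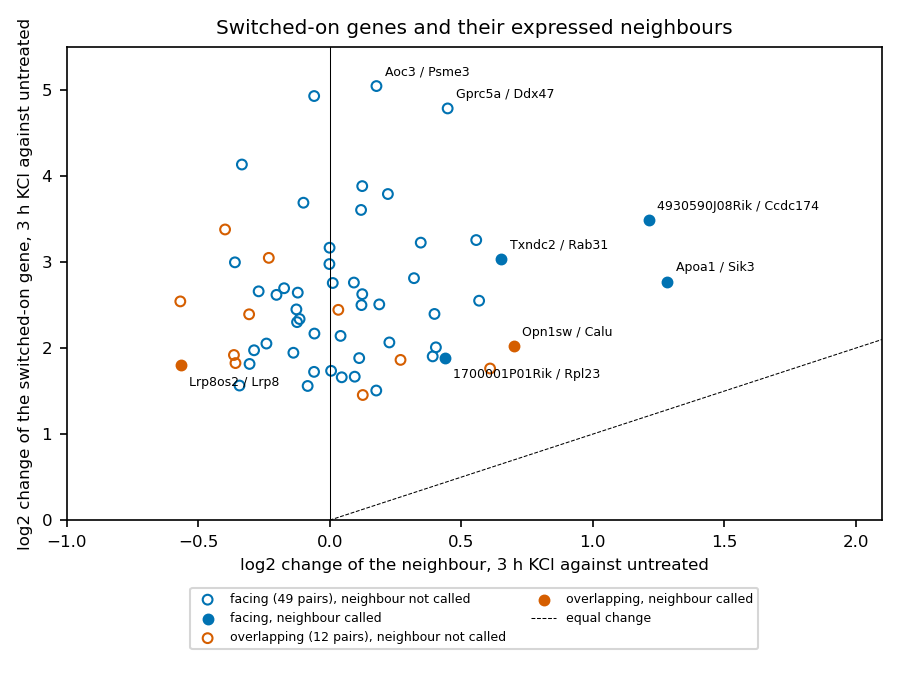
Log2 change at 3 h against untreated of each switched-on gene (vertical axis) and of its strongly expressed neighbour (horizontal axis), for 49 facing pairs in blue and 12 overlapping pairs in orange, filled where the neighbour was called by edgeR. Every pair lies above the dashed line of equal change, as the rule for choosing the genes favours. The neighbours centre on 0, with Sik3 and Ccdc174 farthest to the right.

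The facing gene with the highest level was 1700102P08Rik, which starts 0.26 kb behind the end of Usp4, a deubiquitinase gene on the same strand. It held 0.49 and 0.40 cRPKM without KCl, 0.72 and 0.67 at 0.5 h, and 3.10 and 2.16 at 3 h. Usp4 averaged 37.6 cRPKM at 3 h and 35.9 in untreated neurons, a log2 change of 0.12 ± 0.11 (edgeR adjusted p = 0.448). Both 0.5 h libraries of 1700102P08Rik were already above both untreated ones, while Usp4 changed by 0.02 on the log2 scale at that time.

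Cfap157, a gene of cilia, held 0.45 and 0.47 cRPKM in untreated cells, 0.51 and 0.54 by 0.5 h, and 1.44 and 1.71 by 3 h. Crabp2, a retinoic acid binding protein, held 0.46 and 0.37 cRPKM at rest, 0.42 and 0.39 by 0.5 h and 1.25 and 1.26 by 3 h, and lies 24.99 kb behind Mrpl24. Adgrg3, an adhesion receptor, held 0.15 and 0.12 cRPKM untreated, 0.17 and 0.09 at 0.5 h and 1.23 and 1.21 at 3 h, and lies 3.48 kb behind its relative Adgrg1. Adgrg1 averaged 120 cRPKM at 3 h and 97.7 in untreated neurons (log2 change 0.35, adjusted p = 0.111).

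Among the facing genes are several that are far from the neighbour or stand opposite to it. Gprc5a (ENSMUSG00000046733), an orphan receptor induced by retinoic acid, had 10 and 22 counts in untreated neurons, 6 and 11 at 0.5 h, and 246 and 455 at 3 h. Its log2 change of 4.79 ± 0.68 was among the largest of the 84, and its neighbour Ddx47 ends 41.9 kb away. Rasd1, a Ras-like GTPase first known as induced by dexamethasone, held 0.10 and 0.31 cRPKM at rest, 0.15 and 0.43 after 0.5 h, and 1.15 and 2.03 after 3 h. In Rasd1 replicate 2 was the higher at each time, and its neighbour Med9 is convergent, 0.976 kb away, at 13.5 cRPKM at 3 h and 17.9 in untreated neurons. At 11.8% Rasd1 had the highest level relative to its neighbour of all 49.

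The peptide genes Ucn2 and Oxt were also facing. Ucn2, which encodes urocortin 2 of the corticotropin-releasing family, had 5 and 13 counts in untreated neurons, 6 and 7 at 0.5 h, and 50 and 66 at 3 h, and lies 36.4 kb behind Uqcrc1. Oxt, the oxytocin precursor, had 7 and 1 counts at rest, 3 and 3 by 0.5 h and 26 and 20 by 3 h, and lies 7.48 kb behind Mrps26. F2rl3, the thrombin receptor PAR4, held 0.35 and 0.34 cRPKM untreated, 0.34 and 0.37 at 0.5 h and 1.09 and 1.12 at 3 h, and lies 3.68 kb behind Sin3b (27.4 cRPKM at 3 h and 28.3 in untreated neurons). The 3 h counts of Oxt were just at the minimum of 20 in replicate 2.

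Aoc3 and A930017K11Rik, named after their values were seen, had the largest log2 changes of the facing genes. Aoc3, a vascular amine oxidase, had 6 and 4 counts in untreated neurons, 13 and 14 at 0.5 h, and 128 and 146 at 3 h, 7.07 kb behind Psme3. A930017K11Rik had 9 and 10 counts at rest, 9 and 6 by 0.5 h and 241 and 239 by 3 h, 5.80 kb behind Capn15, a calpain gene that averaged 7.94 cRPKM at 3 h and 8.60 in untreated neurons. Their log2 changes were 5.05 ± 0.41 and 4.93 ± 0.33, against 0.18 for Psme3 and −0.06 for Capn15.

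The 4 facing neighbours called higher were Sik3, Ccdc174, Rab31 and Rpl23. Sik3, a salt-inducible kinase, averaged 36.3 cRPKM at 3 h and 15.5 in untreated neurons (log2 change 1.28, edgeR adjusted p = 0.00406). Apoa1, the main protein of high-density lipoprotein, lies 4.39 kb behind it and held 0.60 and 0.83 cRPKM at 3 h, against 0.08 and 0.14 in untreated neurons. Ccdc174 averaged 19.6 cRPKM at 3 h and 8.83 in untreated neurons (1.21, adjusted p = 0.0093), and 4930590J08Rik, 2.97 kb behind it, had 249 and 47 counts at 3 h, against 9 and 20 untreated. Rab31, a GTPase of vesicle traffic, changed by 0.65 (adjusted p = 0.0155) and the ribosomal protein gene Rpl23 by 0.44 (adjusted p = 0.0398). They face the sperm gene Txndc2 and 1700001P01Rik, whose log2 changes were 3.04 and 1.89. Each of these 4 facing genes had a larger log2 change than its neighbour, as the rule for choosing them favours.

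**Figure D4:**
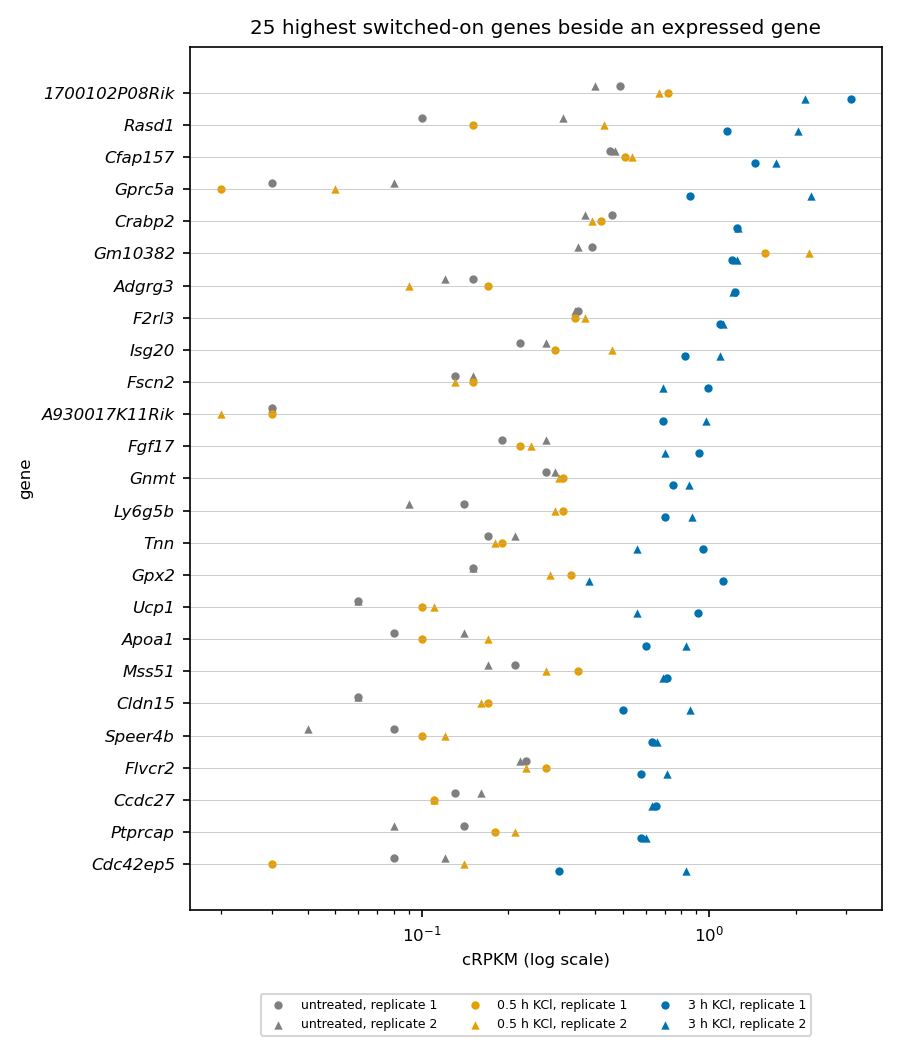
cRPKM (log scale) in each library of the 25 facing or overlapping genes with the highest 3 h mean, with colours for the groups (untreated grey, 0.5 h KCl orange, 3 h KCl blue) and shapes for the replicates (circle 1, triangle 2). Gm10382 is the row in which the 0.5 h points lie to the right of the 3 h points.

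The other 34 facing genes had 3 h means between 0.20 and 0.955 cRPKM. Secreted or matrix proteins among them were Fgf17, the tenascin Tnn, the plasmin inhibitor Serpinf2, the protease inhibitor Wfikkn1 and the secretoglobin Scgb1c1. Receptors and channels were Cd79a of the B cell receptor, the odorant receptor Olfr90 and the acetylcholine receptor subunit Chrne. Transporters, uncoupling proteins and pumps were Flvcr2, Ucp1 of brown fat mitochondria, Atp8b3 and Slc26a3. Enzymes and kinases were the interferon-stimulated exonuclease Isg20, Gnmt, Tktl1, Nmrk2, Ephx3, the transglutaminase Tgm1, the tyrosine kinase Fes and the testis kinase Tssk2. The rest were Fscn2, Ly6g5b, Mss51, Cldn15, Ccdc27, Cdc42ep5, Rinl, Tex45, Lbx2, Casc1, Sytl1, Hspb9, Unc13d and Actl7b. Many of these are known from tissues other than brain, such as liver, skin, testis, retina and blood cells. The lower 3 h library held fewer than 50 counts in 8 of these 34.

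The 12 overlapping genes had an expressed gene across them, in 11 on the opposite strand. Gm10382 held 0.39 and 0.35 cRPKM without KCl, 1.56 and 2.22 at 0.5 h, and 1.20 and 1.25 at 3 h. It was the one gene of the 84 whose 3 h libraries were not both above both 0.5 h libraries.

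Gpx2, a glutathione peroxidase of the gut within Fntb, held 0.15 in both untreated libraries, 0.33 and 0.28 at 0.5 h, and 1.12 and 0.38 at 3 h. Fbxl22, across from Herc1, held 0.17 and 0.16 cRPKM untreated, 0.32 and 0.24 at 0.5 h and 0.57 and 0.56 at 3 h. Ptprcap, a CD45-associated protein of lymphocytes and the one same-strand case (Coro1b), held 0.14 and 0.08 cRPKM at rest, 0.18 and 0.21 by 0.5 h and 0.58 and 0.60 by 3 h. All 3 had both 0.5 h libraries above both untreated ones. Slc3a1, a subunit of the cystine transporter across from Prepl, held 0.15 and 0.14 cRPKM untreated, 0.11 and 0.13 at 0.5 h and 0.61 and 0.44 at 3 h. Speer4b, of a family of close copies within Dpp6, had 4 and 2 counts in untreated neurons and 31 and 23 at 3 h.

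Among the overlapping neighbours 1 rose and 1 fell. Calu, which encodes calumenin, averaged 124 cRPKM at 3 h and 79.1 in untreated neurons (log2 change 0.70, edgeR adjusted p = 0.0246). Opn1sw, the short-wave opsin of the retina that overlaps it, held 0.30 and 0.25 cRPKM at 3 h, against 0.07 and 0.08 untreated. Lrp8, a receptor for reelin, fell to 19.5 cRPKM at 3 h, against 30.1 in untreated neurons (−0.57, adjusted p = 0.0391), while its antisense gene Lrp8os2 held 0.37 and 0.34 cRPKM at 3 h, against 0.12 and 0.09 untreated. Without strand, reads of Lrp8 and of Lrp8os2 cannot be told apart. The other 4 overlapping genes were Gm17409, Egfl8, the NMDA receptor subunit Grin3b and the muscle calcium pump Atp2a1, with 3 h means from 0.19 to 0.505 cRPKM.

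At 0.5 h no change in the 84 genes passed edgeR's test. It called 0 of them higher and 0 lower, against 0.0377% of all 15895 genes called higher. Before adjustment, p was under 0.05 for 11 of them, all upward (0 downward), against 0.629% of all genes upward and 0.176% downward. The choice of the 84 used the untreated libraries that this comparison shares. DESeq2 called 2 higher, Fzd5 and Gm10382 (0.247% of all genes). With the replicate number as a block, edgeR called 1, Fzd5 (0.0818% of all genes). The log2 change was 1.63 ± 0.26 for Fzd5 (edgeR adjusted p = 0.554) and 2.30 ± 0.27 for Gm10382 (edgeR adjusted p = 0.189). Cldn15, a claudin of tight junctions, and Gm10382 were the 2 genes whose lower 0.5 h library already stood at least 2.5 times above the higher untreated one. Cldn15 held 0.17 and 0.16 cRPKM at 0.5 h, against 0.06 in both untreated libraries.

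Both 0.5 h libraries were nonetheless above both untreated ones in 35 of the 84 genes (41.7%), against 14.8% of all genes tested and 11.5% of the 817 that passed the level and count minimums alone. The untreated libraries were also those by which the 84 were chosen as low, and the part of that choice in the share was not tested. By place, the count was 9 of 12 overlapping, 19 of 49 facing and 7 of 23 isolated genes. The median log2 change at 0.5 h was 0.73, 0.08 and 0.26 in these classes, against 0.00 over all genes tested, and at 3 h it was 1.97, 2.55 and 2.88, against −0.02. The differences between the classes were not tested.

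**Figure D5:**
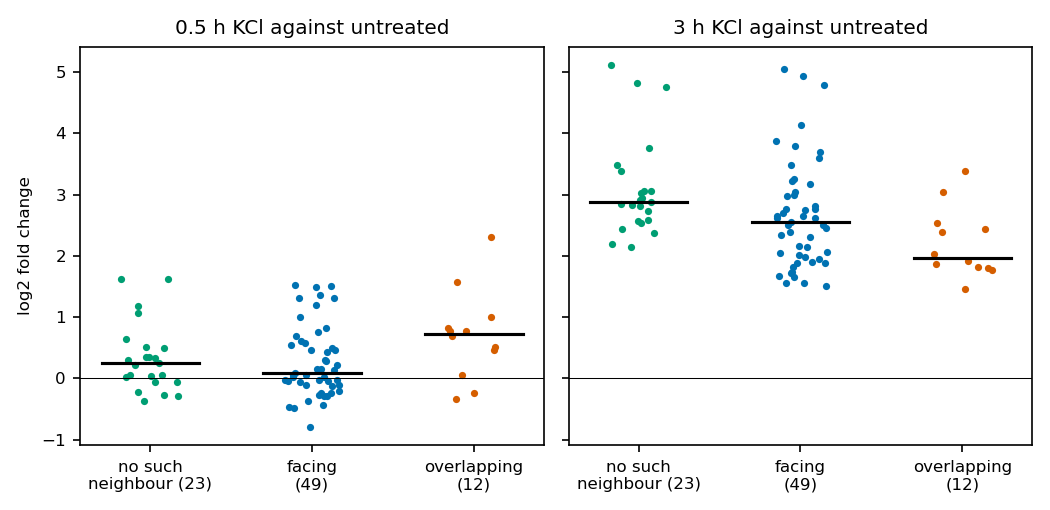
Log2 fold change from edgeR of each switched-on gene at 0.5 h (left) and 3 h (right) against untreated, by place: 23 isolated genes in green, 49 facing in blue and 12 overlapping in orange, with bars at the medians. At 0.5 h most points lie near 0, with Gm10382 the highest at 2.30, while at 3 h they lie between 1.46 and 5.11.

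Between the 3 h libraries, replicate 2 was the higher in 51 of the 84 genes and replicate 1 in 31, close to the 59.1% of all genes tested in which replicate 2 was higher. The libraries were over 2-fold apart in 11 of the 84, with a median ratio of 1.37, against 1.21 over all genes tested. Against 0.5 h, 66 of the 84 were called higher at 3 h and 0 lower, where 6.39% of all genes were called higher and 4.87% lower; this comparison uses the same 3 h libraries as the rule and is a description only. With the block the count was 80 (15.6% of all genes). At the edge of the rule, Tssk2, Rinl and Cdc42ep5 stood at exactly 2.5 times the higher untreated library. Just outside it, Zglp1, Prss16 and a gene with no symbol in the names used (ENSMUSG00000078960) stood at 2.43 times.

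Members of related gene lists were counted among the 84, which are 1.0% of the 8400 genes whose untreated mean was under 0.5 cRPKM. Calls in the lists are by edgeR and stand against 8.71% of all genes called higher and 6.84% lower. Of 34 listed cytokines and growth factors that were also under 0.5 cRPKM in untreated neurons, none is among the 84. The list is not complete: Fgf10, Fgf17 and Tslp are among the 84 but were not on it. Over that list 3 of 37 tested genes rose at 3 h (Hbegf, Inhba and Stc1) and 2 fell (Fgf18 and Angptl4), with a median log2 change of 0.31. With the replicate block these counts were 9 and 5 (18.6% of all genes in each direction). Of 21 near-silent neuropeptide and hormone genes 3 are among the 84 (Cartpt, Oxt and Ucn2), and of 29 tested these 3 were called higher and 0 lower, against 6 and 3 with the block. Of 14 listed near-silent extracellular proteases and inhibitors 1 is (Serpinb2), while Serpinf2 and Wfikkn1 of the 84 were not on the list. Adamts1, Adamts9 and Plat also rose in that list and Adamts16 fell, of 17 tested (median 0.42), and 6 and 2 were called with the block. Of 21 near-silent channels and receptors 2 are (F2rl3 and Ptger4), and of 34 tested 7 rose (Kcnj2, Gpr3, Gpr183, F2rl3, Tacr1, Ptger4 and Ptgs2) and 3 fell (Kcna5, Drd1 and Npy2r), with a median of −0.21; with the block 11 rose and 9 fell. Ptgs2 met the rule and is missing from the 84 only because it was left out by name. Ptgfr, Galr1, Sucnr1 and Chrne, also among the 84, were not on the channel and receptor list. Of 17 near-silent smooth muscle and cytoskeletal genes Cnn1 met the rule and was left out by name, and 0 are among the 84. In that list 4 of 23 tested rose, Tagln, Cnn1, Synpo2 and Vcl (median 0.46), and 11 rose and 0 fell with the block. In the immediate early list 25 of 28 tested transcription factor genes rose and 0 fell, 27 and 0 with the block, with a median of 2.495, against −0.02 over all genes tested. Of those genes, 2 were near-silent at rest, Fosl1 and Batf. Fosl1 met the rule and was left out by name, and Batf stayed at 0.02 cRPKM or less at 3 h. Without untreated replicate 1 the counts of higher genes fell to 11 for the transcription factors and 0 or 1 for each other list, and without untreated replicate 2 to 8 and again 0 or 1. Differences between the lists were not tested.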

How the data were processed

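The deposited file of each library gives, per gene, a count of reads and a cRPKM value, the authors' RPKM computed on a corrected gene length as the column name is read here. The exact definition of the correction is not given in the sources used here. The submitters' processing notes name the build mm9 and Bowtie, and the labels' protocols give TriReagent extraction and a TruSeq RNA version 2 kit. Of 22667 genes listed, 1114 had no value and were left out. No column belongs to a sample outside the 6.

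The 84 genes and the gene lists were chosen with earlier results of these data known, and the comparison with 817 genes past the level and count minimums alone, the functional groups and the genes Aoc3, A930017K11Rik, Cldn15, Apoa1, 4930590J08Rik, Txndc2 and 1700001P01Rik were chosen after their values were seen. Otherwise the text names the 15 isolated genes with the highest 3 h mean (the other 8 were added after their values were seen), the 6 highest facing and the 6 highest overlapping genes, genes in a list, genes at the edge of the rule and the neighbours of these except 2, which are not reported here, and gives the rest by name or range.

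Deposited counts of all 6 libraries went into a quasi-likelihood F test (edgeR 4.0.16, R 4.3.3) with group as the one term and 3 residual degrees of freedom. Scaling was by TMM, low genes were dropped by filterByExpr (minimum count 10), and p-values had Benjamini-Hochberg adjustment over the 15895 genes kept, and with DESeq2 1.42.0 as an alternative. The edgeR step was tested on simulated data. Standard errors are the log2 change divided by the square root of F. The labels call the samples biological duplicates without saying what was duplicated, so a p-value measures the spread between these libraries, which may be technical. Neighbours were taken from GENCODE M21, considering genes with values in the files. Reads shared between close copies, overlapping genes or antisense pairs cannot be assigned with certainty. Promoters are RefSeq's, on GRCm38.p6.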

Additional observations from a re-analysis of the deposited data

Results flagged for a closer look

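The change at 3 h was compared directly with that at 0.5 h, and 66 of the 84 genes were called higher at 3 h than at 0.5 h by edgeR, against 6.39% of all genes tested. The 3 h libraries are those by which the genes were chosen, so the count describes the choice. It was 0 without either 0.5 h library.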

How the results depend on the processing

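The number of genes meeting the rule was 39 at 4-fold and 110 to 155 when 1 untreated or 3 h library was left out, and 62 to 126 at the other settings of fold, ceiling, count and level. Members called higher at 0.5 h were 2 with DESeq2 and 1 with the replicate block (Fzd5, 0.0818% of all genes), and 0 whichever library was left out. Leaving out 1 library gave 0 to 74 members called higher at 3 h than untreated and 0 to 59 at 3 h than 0.5 h. Neighbours called higher were 11 with DESeq2, 15 with the replicate block and 0 to 10 with 1 library left out, and those called lower were 2, 5 and 0 to 8. With same-strand neighbours only, 1 gene was overlapping and 39 were isolated. The replicate numbers are not said to pair the samples. Same-numbered libraries deviated together (correlations of 0.577 to 0.805 over 15895 genes), a hint from the data and not the design. With the replicate block all 84 were called higher at 3 h (18.6% of all genes) and 80 at 3 h against 0.5 h (15.6%). Like member counts at 3 h with 1 library left out, they describe the choice of genes, which used the 3 h libraries. Of the values for single genes, lists and motifs, 1022 were the same, 77 lost the call, 15 gained one and 49 moved. For single genes the same means the same side of the threshold, and for lists and motifs a count close to the main one. Direction was checked only for genes called in the main fit, and none of those reversed. Counts under 10 in an untreated library, found in 24 of the 84 genes, limit their ratios.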

Other observations

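Several near-silent signalling genes from the lists had a higher value in 1 or both 3 h libraries but neither met the rule nor passed edgeR's test (adjusted p from 0.0657 for Wnt11 to 0.398 for Lif). Areg, the epidermal growth factor relative amphiregulin, held 0.85 and 2.02 cRPKM at 3 h, against 0.07 and 0.42 in untreated neurons, so that replicate 2 was the higher at both times. Il11, Lif and Clcf1, cytokines that signal through gp130, held 0.10 and 0.59, 0.10 and 0.48, and 0.21 and 0.87 cRPKM at 3 h. Their untreated libraries held 0.10 and 0.10, 0.06 and 0.20, and 0.16 and 0.23 cRPKM. In these 3 genes replicate 2 alone stood clear of both untreated libraries. Wnt11 held 0.53 and 0.17 cRPKM at 3 h, against 0.08 in both untreated libraries, with replicate 1 the higher. Crh, the corticotropin-releasing hormone gene, held 0.71 and 0.48 cRPKM at 3 h, against 0.04 and 0.31 untreated. These genes were chosen after their values were seen and are given as values only.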
